A study of Homo sapiens with 26 samples.

Results

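Ribosome footprints of Huh7 cells (a human liver tumor line of hepatocyte origin) were compared after 60 min in 1.5 µM PF-06446846 and after 60 min in vehicle, which was DMSO without the compound. The comparison used 6 of the 26 libraries of the series, chosen by their labels as the study 1 ribo-seq libraries of this dose and time and of their vehicle, with 3 replicates of each. PF-06446846 is a small molecule that acts on translation, and the question put to these libraries is which transcripts, and which positions on them, gained or lost ribosomes within the hour. Both groups had their medium exchanged at the start of the treatment, and cycloheximide was added only at harvest. Libraries that share a replicate number were treated as pairs. The study calls its replicates biological, and no source used here says whether they were separate cultures, so p-values measure only the spread between these libraries. Study 2 has 2 ribo-seq and 2 mRNA-seq libraries of each group at the same dose and time, none shared with study 1, and these are used where a measure was read again in other libraries. The study 1 ribo-seq libraries after 10 min in 1.5 µM and after 10 min in vehicle, with 3 replicates of each, are also read for comparison. All values describe a single tumor cell line.

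A translating ribosome protects a short mRNA fragment from nuclease, and sequencing such fragments counts ribosomes codon by codon. The P site of the ribosome holds the tRNA that carries the nascent chain, whose newest residues line the exit tunnel of the large subunit. A ribosome that pauses leaves an excess of footprints at the paused codon. Many secreted and membrane proteins begin with a hydrophobic signal sequence, which the signal recognition particle binds as it emerges and which brings the ribosome to the endoplasmic reticulum (ER).

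The 1.5 µM libraries held 22224137, 6993637 and 11251022 reads in coding sequences (CDS) and the vehicle libraries 6414227, 15521608 and 10086552, over 12325 transcripts. Values are given below for 1.5 µM replicates 1, 2 and 3 against vehicle replicates 1, 2 and 3, and log2 fold changes with their standard error. Replicates of a group differed by more than counting noise (chi-square per degree of freedom 15.5 to 68.9), so none was taken for a repeat deposit. Of the hepatocyte markers tested, AFP, APOA1, APOB, FGB, SERPINA1, TF and TTR were abundant in all 6 libraries, between 319 and 7587 reads per kilobase and 1000000 CDS reads (RPKM). The fibroblast marker DCN was at most 0.584 and the endothelial marker PECAM1 at most 12.1, while LYZ, listed for leukocytes, lay between 1597 and 2343.

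The reads at each codon were first compared with the reads on the rest of the same CDS, which asks where on a transcript ribosomes accumulated. Of 183205 codons with at least 60 reads over the 6 libraries, 334 passed an FDR of 0.1 (0.182%), 230 of them higher (0.126%) and 104 lower (0.0568%) in 1.5 µM. The limit of 60 applies to the sum, so a codon with few vehicle reads was tested only if its 1.5 µM reads were many, as in PIEZO1 and ABCD3 below. With no replicate block 8 codons were called, all higher and all among 228 described here, so nearly all of these calls depend on the pairing, and without replicate 1 the count was 789. The 228 codons lay on 112 transcripts of varied function. The windows that follow show 9 of these codons near the start codon, chosen after their values were seen. Each is the codon of highest fold of its transcript, with the 6 codons before it and the 3 after it. It need not be the codon with most reads. In RPL27, codon 14 held a mean of 5.78% of the reads in 1.5 µM, and codons 23 and 26 held 15.3% and 14.4%. In MDK, codon 16 held 3.33% and codon 9 held 5.03%. The P-site codon is in capitals, and all windows lie in coding exons of GRCh38.
HSD17B11 codon 16: cttctcccgttactgatcGTCtgctcccta
MDK codon 16: accctcctcgccctgctgGCGctcacctcc
BCAP31 codon 13: gcagttgccaccttcctcTATgcggaggtc
TM2D3 codon 19: gccttgtgtcgcgtgctgCTCttcctctcg
RPL27 codon 14: gggaaggtggtgcttgtcCTGgctggacgc
PCBP1 codon 18: gtgactctcaccattcggCTTcttatgcac
PCBP2 codon 32: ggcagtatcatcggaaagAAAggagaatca
CD99 codon 28: ccggatggtggtttcgatTTAtccgatgcc
EMC7 codon 17: gtcctgctgctgctgctgCTAtcgggggat
In the order printed they lie at chr4:87391014-87391043 (minus strand), chr11:46382085-46382114 (plus strand), chrX:153723197-153723226 (minus strand), chr15:101652296-101652325 (minus strand), chr17:42998772-42998801 (plus strand), chr2:70087777-70087806 (plus strand), chr12:53455353-53455472 (plus strand), chrX:2691424-2714447 (plus strand) and chr15:34101780-34101809 (minus strand). The windows of PCBP2 and CD99 cross an intron, which the coordinates include and the printed bases do not.

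HSD17B11, a hydroxysteroid dehydrogenase of the ER and lipid droplets, held more of its reads at its raised codon than any other gene shown. Codon 16 had 32.9%, 42.6% and 56.8% against 0.144%, 1.37% and 2.1% of the transcript's reads. The means were 44.1% ± 12 against 1.2% ± 0.989 (SD, n = 3), with no overlap between the groups (log2 6.17 ± 0.45, edgeR adjusted p = 1.15e-08). In MDK, which encodes the heparin-binding growth factor midkine, codon 16 had 2.99%, 3.62% and 3.39% against 0.193%, 0% and 0.0548% (log2 5.63 ± 0.74, edgeR adjusted p = 0.000199). BCAP31, a chaperone of the ER membrane, had 1.67% ± 0.256 against 0.0424% ± 0.0386 at codon 13 (log2 5.11 ± 0.69, edgeR adjusted p = 0.000292). TM2D3, a membrane protein, had 13.9% ± 2.16 against 0.633% ± 0.691 at codon 19 (log2 4.47 ± 0.64, edgeR adjusted p = 0.000551). In all 4 genes the lowest 1.5 µM library stood above the highest vehicle library.

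NDUFB8, a subunit of respiratory complex I, rose at codon 15, with 0.938%, 5.66% and 4.42% against 0.122%, 0.0861% and 0.127% of its reads. RPL27, a protein of the large ribosomal subunit, rose at codon 14, with 2.64%, 7.16% and 7.52% against 0.274%, 0.47% and 0.406% (log2 3.91 ± 0.35, edgeR adjusted p = 9.59e-07). FUCA2 (a fucosidase) at codon 31, ABCD3 (a peroxisomal transporter) at codon 22, SSR4 (a subunit of the translocon-associated TRAP complex) at codon 20 and FGA (the fibrinogen alpha chain) at codon 11 had log2 fold changes of 4.73, 4.6, 4.55 and 4.26. Of these, FUCA2 lost its call without replicate 2 and ABCD3 without replicate 3, and ABCD3 rested on 5, 13 and 54 against 0, 2 and 2 reads. HSP90B1, the HSP90 of the ER, rose at codon 19 (log2 4.18 ± 0.56, edgeR adjusted p = 0.000256), but its groups overlapped, with 0.0516%, 0.775% and 0.894% against 0%, 0.0174% and 0.101%. At the codon of highest fold the groups did not overlap in 107 of 112 transcripts, against 4.33% of all codons tested with every 1.5 µM library above every vehicle library. Some of the 112 hold the same reads, among them transcripts of histone H2B, so they are not independent.

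Codons far from the start rose as well, and 5 of them are printed to compare with those near the start, again with the P-site codon in capitals.
PIEZO1 codon 227: agtgtctacctgctgctcTTCctggccctc
CRK codon 60: aactcgcgcgtctcccacTACatcatcaac
USO1 codon 287: catctaatgctacagcttGTTcgtgtattg
CDH1 codon 729: ctgattctgctgctcttgCTGtttcttcgg
H2BC18 codon 60: ggcatctcgtccaaggccATGggcatcatg
They lie at chr16:88738385-88738414 (minus strand), chr17:1455929-1455958 (minus strand), chr4:75782844-75787076 (plus strand), which crosses an intron, chr16:68828176-68828205 (plus strand) and chr1:149812135-149812164 (minus strand). PIEZO1 is a mechanically gated ion channel with many membrane spans. Its codon 227 held 41, 3 and 33 reads in 1.5 µM and 0 in each vehicle library, where a count of 0 still allows up to 3 reads, so no fold is given. It reached the limit of 60 reads through the 1.5 µM libraries alone, so its direction was fixed by that limit. The call was lost without replicate 3. CRK, an adaptor of tyrosine kinase signalling, had 7.88%, 10.6% and 15.5% against 0.259%, 0.687% and 0.23% at codon 60 (log2 4.86 ± 0.58, edgeR adjusted p = 4.2e-05). USO1, which tethers transport vesicles at the Golgi, had 3.69%, 1.91% and 4.36% against 0%, 0.207% and 0.107% at codon 287 (log2 4.58 ± 0.72, edgeR adjusted p = 0.00191). CDH1 (E-cadherin, the adhesion receptor of epithelia) had 1.34% ± 0.284 against 0.161% ± 0.132 at codon 729 of 883 (log2 3.3 ± 0.63, edgeR adjusted p = 0.0181). The groups did not overlap at any of these codons.

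For 228 of the codons that rose, the median position was codon 54.5, against 171 for all codons tested. Of the 228, 105 (46.1%) lay between codons 11 and 50, where 11.2% of tested codons lie, and 58 (25.4%) lay past codon 100, where 69.5% of tested codons lie. Leucine was the P-site residue at the codon of highest fold in 22 of 106 transcripts with a matched sequence (20.8%), against 7.87% of tested codons. Isoleucine and valine had 11 each (10.4%, against 3.55% and 6.41%), and serine and glycine had 2 each (1.89%, against 8.18% and 8.74%). Methionine had 13 (12.3%, against 2.53%), but 10 of these are the same site, codon 60, in near-identical H2B genes. Without the H2B transcripts methionine had 3 of 91 (3.3%) and leucine 22 (24.2%). Of the remaining 180 raised codons the median position was codon 32, with 97 (53.9%) between codons 11 and 50. The excess of leucine was not particular to the P site. At the next codon, in the A site, leucine had 15 of 106 (14.2%, against 5.98%), while valine had 3 (2.83%, against 7.54%). The tested codons were not matched to the raised ones for position.

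**Figure D1:**
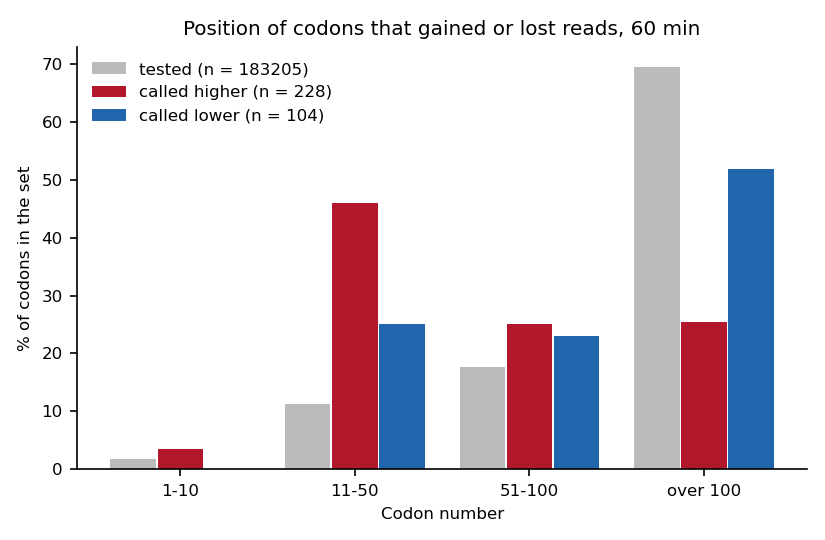
Percent of codons by codon number, for all tested codons, for 228 codons that rose in 1.5 µM and for codons that fell. Between codons 11 and 50 the bars stand at 11.2% of tested codons, 46.1% of codons that rose and 25.0% of codons that fell.

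In several transcripts a run of codons rose together, and its share of the transcript's reads gives the size of the accumulation. RPL27 had 9 raised codons, and codons 13 to 27 held 55.2%, 73.6% and 73.6% against 11.7%, 18% and 16% of its reads. In MDK, codons 5 to 20 held 25%, 35.6% and 45.4% against 2.8%, 4.2% and 4.87%. PCBP2 and PCBP1, which bind C-rich RNA, had 13 and 12 raised codons, and the stretches held 34% ± 4.36 against 7.08% ± 1.23 (codons 6 to 32) and 30.6% ± 2.82 against 7.37% ± 1.27 (codons 10 to 32). These paralogs are alike in sequence, and reads that fit both were counted in both, so their values are not independent.

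CD99, a glycoprotein of the cell surface, held 29.4% ± 2.75 against 7.02% ± 0.756 of its reads at codons 15 to 30. BCAP31 held 20.7% ± 2.16 against 3.63% ± 1.14 at codons 12 to 25, and EMC7, a subunit of the complex that inserts proteins into the ER membrane, held 17.8% ± 3.33 against 2.56% ± 0.712 at codons 16 to 18. TMED2, a cargo receptor of early secretory vesicles, held 18.3% ± 4.68 against 4.03% ± 0.451 at codons 24 to 28, and USO1 held 9.39% ± 2.51 against 0.75% ± 0.133 at codons 286 to 288. In RPL27, MDK, PCBP1, PCBP2, CD99, BCAP31, EMC7, TMED2 and USO1 the 3 libraries of 1.5 µM all stood above the 3 of vehicle. Each stretch runs from the first to the last codon raised in these libraries, so this direction is in part fixed by the choice. Stretches drawn the same way overlapped in H2BC10, H2BC13, H2BC4 and H2BC6, as in H2BC10 with 46.7%, 53.4% and 55.1% against 57.1%, 51.7% and 45.7%.

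**Figure D2:**
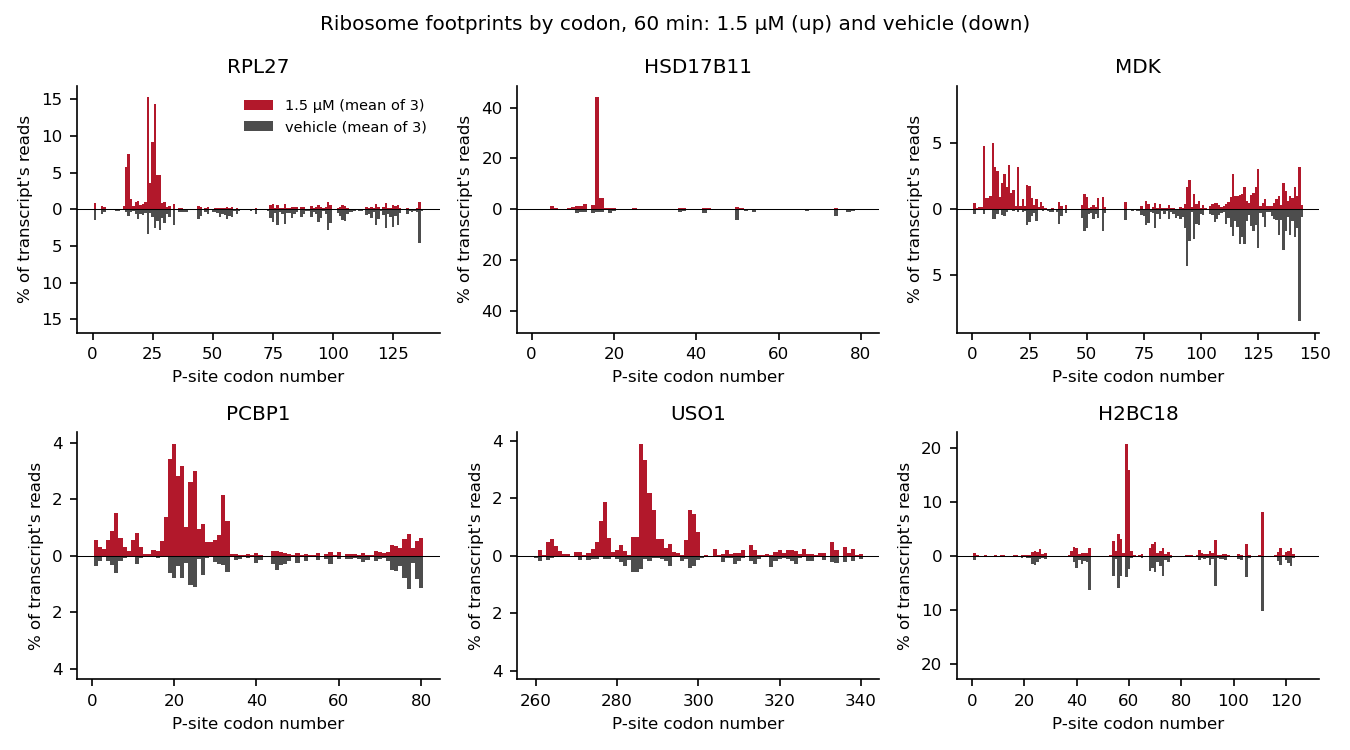
Percent of each transcript's reads at each P-site codon, as the mean of 3 libraries of 1.5 µM (red, upward) and of 3 vehicle libraries (grey, downward). RPL27, HSD17B11, MDK and PCBP1 carry their tallest red bars near the start codon, USO1 near codon 287 and H2BC18 at codons 59 and 60.

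The same codons were read in study 2, whose libraries had no part in choosing them. At the codon of highest fold, 98 of the 112 transcripts (87.5%) had a higher share in both pairs, against 22.5% of tested codons. In 94 (83.9%, against 14.2%) both 1.5 µM libraries stood above both vehicle libraries. Some of the 112 hold the same reads, so these counts are not of independent transcripts. Only 95 lie outside H2B. HIST2H2BE, H2BC18, H2BC26 and HIST1H2BN each held 524 and 673 against 181 and 97 reads at codon 60. HSD17B11 codon 16 held 19.3% and 18.2% against 0.496% and 0.11%, and RPL27 codon 14 held 11.8% and 9.02% against 0.42% and 0.445%. The stretch of RPL27 held 43.7% and 41.8% against 8.26% and 7.42%, and that of CD99 29.1% and 30.1% against 8.32% and 9.84%. USO1 held 1.72% and 2.39% against 0.837% and 0.357% at codons 286 to 288. VPS25, an ESCRT-II subunit, was higher in only 1 of the 2 pairs, with 0.646% and 0.919% against 0.837% and 0.648% at codon 15 beside 5.18%, 8.6% and 9.36% against 0.315%, 1.62% and 1.03% in study 1. Others not higher in both pairs included APP, APOB (codon 35), CLPTM1, C3 (codon 1385), PTDSS1, LBR, TMED10, PSME1, H1-1 and SSR1.

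The codons that fell were led by TIMM50 codon 295, SLC39A1 codon 214, RBM3 codon 103, PFN1 codon 120 and RPL27 codon 39, with log2 fold changes of -3.06, -3, -2.87, -2.87 and -2.79. They rest on few reads, with 5, 3 and 2 against 21, 29 and 13 at codon 295 of TIMM50, a subunit of the mitochondrial import machinery, and each of the 5 lost its call when at least 1 replicate number was left out. RPL27 alone held 32 of the 104 codons that fell, which lay between codons 34 and 136 and so downstream of its raised stretch. Each codon was tested against the rest of its own CDS, so a gain at some codons lowers the others by construction.

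Histone H2B, one of the core histones that package DNA, accumulated reads well inside its CDS. Codon 60 rose in 17 of the 18 H2B transcripts tested, with log2 fold changes of 0.25 to 3.02 over the 18, and these held 14 distinct sets of reads. In HIST2H2BE, codons 58 to 60 held 37.1%, 37.6% and 43.7% against 4.17%, 9.07% and 8.47% of the reads. HIST1H2BN held 62.5%, 56.2% and 64.7% against 11.5%, 22.2% and 19.8%, and H2BC18 held 34.5%, 35.8% and 41.7% against 3.41%, 8.41% and 7.93%. In these 3 the groups stood far apart, while in H2BC17 they overlapped, with 8.99%, 3.59% and 2.26% against 5.12%, 5.02% and 1.64%. In study 2 the stretch of HIST2H2BE held 8.67% and 9.45% against 3.01% and 2.23%.

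Outside codons 58 to 60 the groups overlapped in all 18 H2B transcripts. Levels there are given per 1000000 CDS reads of the library (CPM). The log2 ratio of mean CPM lay between -0.16 and 0.08. HIST2H2BE had 809, 1213 and 1091 against 942, 1243 and 1210 CPM on its other codons, and H2BC18 had 906, 1310 and 1185 against 1162, 1349 and 1300. These 2 transcripts were lower in 3 of 3 pairs (log2 ratios -0.12 and -0.16), and the other 16 had pairs of both signs. The genes are nearly identical, and reads that aligned equally well to up to 5 sites were counted at each, so which H2B gene a read came from is uncertain. The bounds of the stretch were set after its values were seen.

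**Figure D3:**
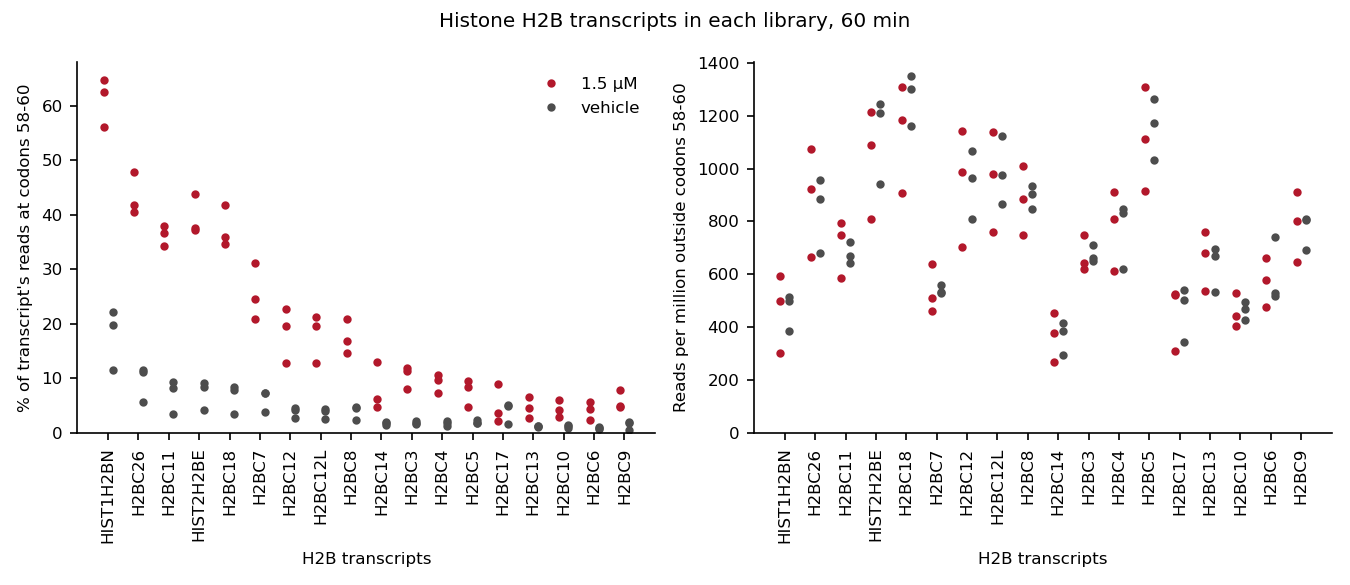
Left, percent of each H2B transcript's reads at codons 58 to 60 in each library of 1.5 µM (red) and vehicle (grey). Right, CPM on the remaining codons of the same transcripts, where the groups overlap in all 18.

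The share of reads on the first 50 codons, tested against the later codons of the same transcript, asks which transcripts held more ribosomes near their start. Of 6687 transcripts of at least 100 codons, 99 passed the FDR (1.48%), 75 with a higher share (1.12%) and 24 with a lower one (0.359%). With no replicate block 29 were called, among them 27 of 74 genes that rose and 1 of the 24 that fell, so nearly all falls depend on the pairing. Without replicate 3 the count was 56, and with the region widened to the first 100 codons it was 34. Log2 changes for the early share are those of the ratio of early to later reads, relative to the typical transcript, and not of the percentages themselves. The log2 changes of the 10 named genes with the largest rise were 3.29 for MST1, 3.2 for ENTPD2, 3.04 for TM2D3, 2.93 for RPL27, 2.72 for LTBP3, 2.67 for PODXL2, 2.64 for HSD17B11, 2.4 for CD99, 2.31 for MDK and 2.19 for SUMF1.

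MST1, macrophage-stimulating protein, a factor secreted by the liver, had 20.0%, 7.48% and 25.4% against 2.99%, 1.5% and 1.43% of its reads on the first 50 codons (log2 3.29 ± 0.45, edgeR adjusted p = 1.09e-05). ENTPD2, an ectonucleotidase of the cell surface, had 28.8%, 35.9% and 42.9% against 8.7%, 3.31% and 6.82% (log2 3.2 ± 0.55, edgeR adjusted p = 0.000405). RPL27 had 69.1%, 85.3% and 83.7% against 29.7%, 38.9% and 34.7% (log2 2.93 ± 0.15, edgeR adjusted p = 5.9e-16). The groups did not overlap in these 3 genes, nor in TM2D3 (38.2% ± 2.51 against 6.97% ± 1.12), LTBP3, which binds latent TGF-β (18% ± 7.31 against 3.24% ± 2.33), the sialomucin PODXL2 (23.7% ± 6.7 against 4.67% ± 1.39), or CD99 (41.9% ± 2.06 against 11.9% ± 0.321).

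Genes with smaller shifts in the same direction included SSR1, the alpha subunit of the TRAP complex, with 28.7%, 42.3% and 40.8% against 21%, 23.1% and 21.8%. The matrix protein TGFBI had 4.23%, 7.1% and 7.31% against 1.38%, 1.75% and 1.58%, and complement factor I (CFI) had 13.8%, 11.3% and 11.1% against 5.52%, 4.39% and 6.31%. The groups did not overlap in these 3 genes, and they did in 9 of 74 genes that rose, among them FGA and COX5B. Of all transcripts tested, 5.95% had every 1.5 µM library above every vehicle library.

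The share fell most in AGMO (-1.84), CAMK2G (-1.75), RBM47 (-1.6), DDX41 (-1.58), UBA3 (-1.58), HIST1H2BN (-1.33), CDK5 (-1.2), MLX (-1.2) and TSEN34 (-1.19, with copies that share its reads). AGMO overlapped between the groups, with 4.34%, 4.44% and 1.17% against 17.5%, 8.82% and 3.17%, and CAMK2G, RBM47, DDX41, UBA3, CDK5, MLX and TSEN34 each lost their call when at least 1 replicate number was left out. HIST1H2BN had 10.7%, 9.29% and 8.54% against 28.5%, 19.6% and 15.3% (log2 -1.33 ± 0.16, edgeR adjusted p = 4.79e-07), and with the region widened to the first 100 codons, which takes in codons 58 to 60, its log2 change was 1.23. TRIB3, a pseudokinase of the integrated stress response, had 32.2%, 27.7% and 24.9% against 55.7%, 37.5% and 36.8% (log2 -0.98 ± 0.2, edgeR adjusted p = 0.00552).

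The protein sequence was used by none of these tests. Of genes with a matched sequence, 42 of 68 that rose in the early share (61.8%) had, within their first 40 residues, a window of 11 residues with a mean Kyte-Doolittle hydropathy of at least 2, against 16.1% of all transcripts tested and 1 of 19 that fell (5.26%). Of the 24 transcripts whose share fell, 6 were of H2B, whose genes are nearly identical and share reads, so those that fell are not independent. Transcripts with a raised codon had it in 46 of 106 (43.4%, against 16.2%). These 106 include H2B transcripts, without which 91 remain. SUMF1, LTBP3, HSD17B11, BCAP31, MDK and CD99 were above this limit (3.02 to 3.62), and RPL27, PCBP1 and PCBP2 were below it (1.37 to 1.49). The limit was set after the calls were known, and these shares are descriptions.

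The center of density, the mean position of a transcript's reads along its CDS, moved by a mean Z-score beyond 3 in 19 of 10482 transcripts (0.181%), toward the 5′ end in 17 (0.162%). In RPL27 it lay at 34.1%, 24.2% and 25.4% against 58.5%, 49.8% and 53.3% of the CDS, a shift of -26% ± 1.83 (SD over 3 pairs, Z = -9.34). MDK shifted by -21.9% ± 3.4 (Z = -6.94) and HSD17B11 by -22% ± 7.33 (Z = -6.89). PCBP2, PCBP1 and TM2D3 had Z-scores of -5.38, -4.84 and -4.42. BCAP31, SUMF2, CD99, EMC7, SUMF1, PODXL2, USO1, ERP29, SSR1 and PLA2G15 lay between -3.7 and -3.06, and the shift was 5′-ward in 3 of 3 pairs in these 16 genes.

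Reads moved toward the 3′ end in COX10, a heme biosynthesis enzyme of mitochondria, with 58.9%, 69.2% and 72.9% against 44.5%, 51.2% and 55% (Z = 3.57), and in RAB5IF, with 67.3%, 73.4% and 78.5% against 57.1%, 69.7% and 66.5% (Z = 3.17). PLA2G15 (-3.06) lay just inside the limit and MAPRE1 (-2.91) just outside it. ERP29, SUMF1, PODXL2, SSR1, EMC7, PLA2G15 and RAB5IF fell under the limit when at least 1 replicate number was left out.

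Reads past the codon where the groups diverged most were counted next. For each transcript the cumulative read distributions of the groups were compared, the codon of largest excess in 1.5 µM was taken as the Dmax codon, and reads 3′ of it were tested where the excess had a Z-score of at least 2. Of 10710 transcripts, 42 fell by this measure (0.392%), which is 42 of the 281 tested from their Dmax codon (14.9%). Of the 42, 17 (40.5%) also had a codon called higher and 21 (50.0%) a higher early share. A fall here thus does not by itself mark an accumulation called by those measures. With no replicate block 22 fell, 21 of the 41 described here among them. The count was 75 without replicate 1, 133 without replicate 2 and 23 with a Z-score of at least 3. Among the other 10429, counted from codon 50, 25 fell and 25 rose (0.24% each). The Dmax codon was placed with the same libraries, so the direction of these changes is in part fixed by the choice. The Z-score of LDAH lay just inside the limit and that of HOXA7 (1.998) just outside it.

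Of the 42, the 41 counted here fell by a median of 52.8% (log2 -1.08, range -2.28 to -0.42). Their median Dmax codon was 78, and it lay at or before codon 50 in 17 of 41 (41.5%). The 41 come from 307 transcripts with a Z-score of at least 2, and in 52 of these (16.9%) it lay at or before codon 50. Of all 11464 transcripts with a Dmax codon the share was 11.1%. The Dmax codon lay past codon 200 in 9 of 41, against 119 of the 307 and 5906 of the 11464. A window of hydrophobic residues as defined above was found in 19 of 38 with a sequence (50.0%, against 15.8%). Below they are grouped by known role, a grouping made after the calls.

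Among secreted and surface proteins, MDK had 42.2, 52.4 and 51.2 against 163, 173 and 192 CPM (scaled by TMM) 3′ of codon 32 (log2 -1.86 ± 0.1, edgeR adjusted p = 6.2e-08). LTBP3 had 7.39, 11.5 and 10.5 against 27.4, 41.8 and 30.6, and MST1 had 9.92, 17.1 and 9.46 against 40.3, 45.1 and 31.6. In CDH1 the Dmax codon was 742 of 883, and the codons after it had 13.7, 15 and 11.2 against 42.6, 39.7 and 36.2 (log2 -1.58 ± 0.13, edgeR adjusted p = 5.77e-06, not called without replicate 3). The whole CDS of CDH1 was not called (edgeR adjusted p = 0.996). CD99, PODXL2, the semaphorin SEMA4B, the chemokine receptor CCR1 and the lectin-like CLEC2L had log2 fold changes of -0.95, -1.21, -0.94, -2.06 and -2, and SEMA4B and CCR1 lost their call without replicate 3.

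Among proteins of the ER, Golgi and lysosome, HSD17B11 had 31.8, 31.4 and 21.4 against 112, 102 and 85.2 CPM 3′ of codon 18 (log2 -1.83 ± 0.1, edgeR adjusted p = 8.18e-08). BCAP31 had 112, 141 and 115 against 332, 274 and 279, and EMC7 had 52.7, 39.6 and 51 against 112, 87.6 and 94. SUMF1, which generates the catalytic formylglycine of sulfatases, and its paralog SUMF2 had log2 fold changes of -1.05 and -1.08. USO1 had 45.9, 33.3 and 27.7 against 86, 78.1 and 70.0 3′ of codon 344. The lysosomal enzymes PLA2G15 (a phospholipase) and IFI30 (a thiol reductase) had -1.38 and -0.59. SSR1 changed least of the 41 (-0.42), and its groups overlapped, with 161, 119 and 114 against 195, 161 and 167. The membrane proteins TM2D3, BRI3BP and SLC66A3 and the ER torsin TOR1B had -2.28 to -0.71, SLC66A3 at only 0.608, 0.689 and 0.312 against 3.18, 2.97 and 1.61 CPM.

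Of the cytosolic, nuclear and mitochondrial proteins, RPL27 had the highest level in vehicle, with 349, 278 and 271 against 1061, 953 and 957 CPM 3′ of codon 28 (log2 -1.73 ± 0.08, edgeR adjusted p = 1.89e-08). PCBP1 had 258, 300 and 287 against 669, 744 and 753, and PCBP2 had 421, 455 and 408 against 805, 861 and 824. The mitochondrial ribosomal proteins MRPL45 and MRPS36, the complex III assembly factor UQCC4 and PDPR, of pyruvate dehydrogenase regulation, had log2 fold changes of -1.27 to -0.56, MRPL45 with 44.6, 44.5 and 35.5 against 64.3, 70.3 and 71.6. The microtubule-end protein MAPRE1 had 153, 133 and 132 against 239, 177 and 196, and GINS1, of the replicative GINS complex, had a log2 fold change of -0.52. The cysteine dioxygenase CDO1, the immunoproteasome subunit PSMB10, GEMIN8 of the SMN complex, the cytolinker plectin (PLEC), the transcription regulators ZFHX3 and SKI, and PRCC, DPCD and C18orf32 had -1.31 to -0.51. ZFHX3 overlapped, with 12.8, 8.44 and 5.2 against 38.8, 10.6 and 8.39, where vehicle replicate 1 was the highest library, and PLEC overlapped with 32.7, 54.6 and 36 against 54.7, 94.8 and 45.7. The groups did not overlap in the other 38 of the 41. Every 1.5 µM library lay below every vehicle library in 3.86% of all transcripts tested and in 45.6% of the 281 tested from their Dmax codon.

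**Figure D4:**
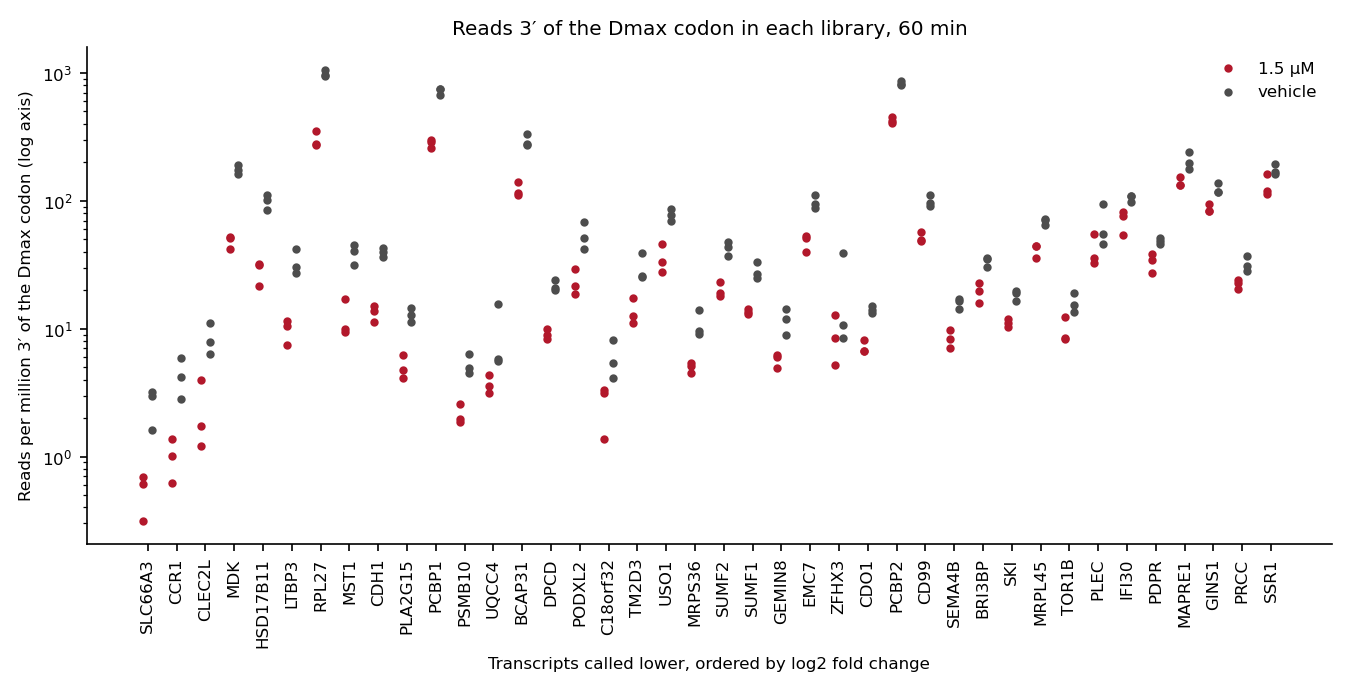
CPM 3′ of the Dmax codon in each library (log axis) for the transcripts named in the text, ordered by log2 fold change, with 1.5 µM in red and vehicle in grey. The groups overlap in ZFHX3, PLEC and SSR1 and are apart in the others drawn, among them MDK, HSD17B11 and RPL27.

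In study 2, reads 3′ of the codon placed in study 1 were lower in 39 of the 41 genes (95.1%, against 49.7% of all transcripts), lower in both pairs in 36, and called lower in 27 (65.9%), beside 81 of 10999 transcripts called lower (0.736%). The median log2 fold change was -0.74. RPL27 gave -1.39 ± 0.04, HSD17B11 -1.59 ± 0.08, MDK -1.41 ± 0.06 and PCBP1 -1.34 ± 0.04. Among genes whose raised positions lie far inside the CDS, CDH1 gave -1.23 ± 0.11 and USO1 -0.72 ± 0.09, and both were called. ZFHX3 (0.23 ± 0.06) and SKI (0.07 ± 0.15) were not lower, and CLEC2L (-0.08 ± 0.3), PSMB10 (-0.07 ± 0.36), UQCC4 (-0.09 ± 0.19) and PLEC (-0.09 ± 0.07) were lower by less than their standard error or little more. In mRNA-seq of study 2, edgeR called 0 of 11812 transcripts over the whole CDS (0.0%), with 378 at an unadjusted p under 0.05, and DESeq2 called 0. There 21 of the 41 were lower (51.2%, against 49.7% of all transcripts).

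**Figure D5:**
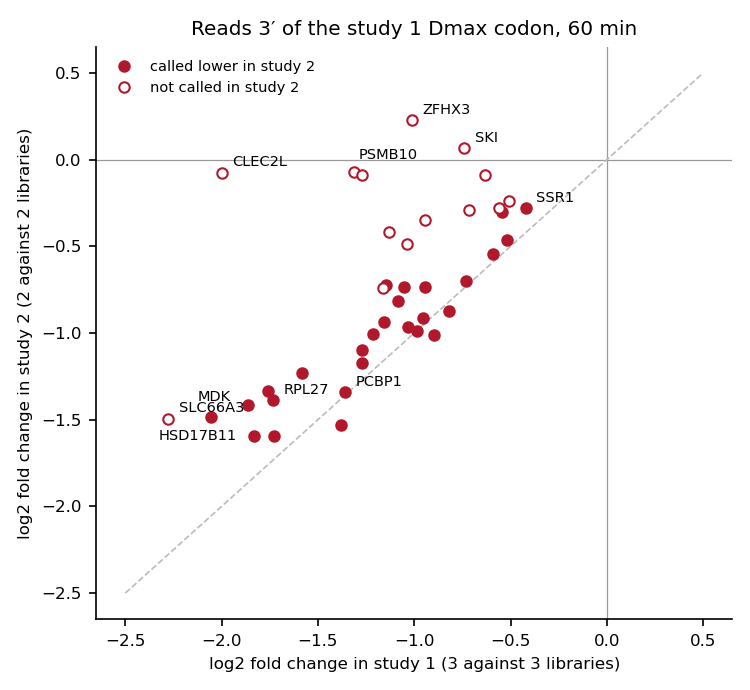
Log2 fold change of reads 3′ of the study 1 Dmax codon in study 1 (horizontal) and study 2 (vertical) for the 41 transcripts, with filled points called lower in study 2 and a dashed line of equal values. ZFHX3 (0.23) and SKI (0.07) lie above 0 in study 2.

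Summed over the whole CDS, 51 of 11021 transcripts changed (0.463%), 38 lower (0.345%) and 13 higher (0.118%). The groups did not overlap in 31 of 37 genes that fell and in 9 of 13 that rose, against 6.62% of all transcripts. With no replicate block 8 transcripts were called, 7 of these 37 genes among them, so most of these calls depend on the pairing, and none of the 13 rises was called there. The count was 324 without replicate 1, 161 without replicate 2 and 31 without replicate 3. Of the 42 transcripts that fell 3′ of the Dmax codon and the 38 that fell over the whole CDS, 17 were shared (40.5% and 44.7%). RPL27 was not called over its whole CDS (edgeR adjusted p = 0.889).

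FAM13B and FEZF2 had the lowest log2 fold changes (-3.16 and -1.91), and both are described after the next genes. MST1 had 10.6, 15.7 and 11 against 35.4, 39.7 and 27.8 CPM (log2 -1.48 ± 0.13, edgeR adjusted p = 7.84e-06). SORCS2, a sorting receptor of the VPS10 family, had 3.94, 6.18 and 5.49 against 11.4, 16.9 and 14.8 (log2 -1.47 ± 0.17, edgeR adjusted p = 0.000182). MDK had 59.3, 77.2 and 90.2 against 157, 162 and 182 (log2 -1.16 ± 0.1, edgeR adjusted p = 7.84e-06). LTBP3 (-1.46), BCAP31 (-0.95), DPCD (-0.93), PCBP1 (-0.85) and the Wnt receptor FZD4 (-0.85, not called without replicate 3) also fell. In these genes, from MST1 to FZD4, the groups did not overlap.

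FAM13B had 0.303, 0.294 and 0.27 against 2.57, 2.18 and 3.19 CPM (log2 -3.16 ± 0.45, edgeR adjusted p = 0.002), at only 15.7 reads a library on average. FEZF2, a transcription factor of the forebrain, had 5.19, 1.77 and 0.36 against 24.8, 1.91 and 2.29, so its groups overlapped and vehicle replicate 1 stood apart. It was not called without replicate 1, and with no block and vehicle replicate 1 left out its log2 fold change was 0.39. At 10 min FEZF2 had 1.18, 2.31 and 4.39 against 12.7, 63 and 4.15 CPM (log2 -2.89 ± 0.35, edgeR adjusted p = 6.86e-08), again lower and with 1 vehicle library, replicate 2, far above the others. In study 2 it gave a log2 fold change of 0.16.

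Among the 13 genes that rose, none of which keeps its call with no replicate block, HIST1H2BN led with 770, 1395 and 1438 against 425, 657 and 643 CPM (log2 1.04 ± 0.08, edgeR adjusted p = 2.03e-06), and H2BC26, H2BC11, HIST2H2BE and H2BC18 had log2 fold changes of 0.74, 0.6, 0.48 and 0.4. These totals include the reads at codons 58 to 60 described above. PTP4A1, a protein tyrosine phosphatase, had 50.6, 40.6 and 58.8 against 25.7, 25.2 and 33.6 (log2 0.82 ± 0.11, edgeR adjusted p = 0.000784). ATP5MK, a small subunit of the mitochondrial ATP synthase, had 218, 181 and 203 against 102, 134 and 125 (log2 0.74 ± 0.11, edgeR adjusted p = 0.00265). AMD1, which makes decarboxylated S-adenosylmethionine for polyamine synthesis, overlapped with 60.0, 39.9 and 56.7 against 40.4, 33.4 and 35.9 (log2 0.5 ± 0.11, edgeR adjusted p = 0.0716). C6orf89, the lysosomal mannosidase MAN2B2, the gamma-secretase subunit APH1A, the zinc exporter SLC30A1 and TMED2 had log2 fold changes of 0.4 to 0.63. AMD1, APH1A, C6orf89, MAN2B2 and HIST2H2BE lost their call without replicate 3.

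The genes that fell over the whole CDS were read in other libraries. In ribo-seq of study 2, 35 of 37 were lower and 24 were called lower (64.9%), beside 79 of 11263 transcripts called lower there (0.701%). At 10 min in study 1, 34 of 37 were lower and 30 called lower (81.1%), beside 541 of 11045 called lower at that time (4.9%). In mRNA-seq, where no transcript was called, 12 of 37 were lower (32.4%, against 49.7% of all). Of the 13 that rose, 12 were higher and 7 called higher in study 2, beside 0.444% of transcripts, and 12 were higher and 7 called higher at 10 min, beside 5.93%.

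The difference between the 2 times passed the FDR in 1 of 11167 transcripts (0.00895%), and that between the 2 studies in 3 of 11355 (0.0264%). The single transcript that differed between times was AMD1, which was higher in 1.5 µM at 60 min and lower at 10 min. Those that differed between studies were FEZF2, H2BC26 and HIST1H2BN, whose log2 fold changes were nearer to 0 in study 2. Between times edgeR called 0 with no replicate block and 0 without replicate 1 (506 and 389 at an unadjusted p under 0.05), 15 without replicate 2 and 32 without replicate 3. Between studies it called 0 with no replicate block, 0 without replicate 3 and 0 without replicate 4 (118, 377 and 173 at an unadjusted p under 0.05), 1 without replicate 5 and 22 without replicate 1, so none of these calls held under all settings run.

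Gene lists were read for the whole CDS beside a median log2 fold change of -0.0035 over all transcripts, of which 0.345% fell and 0.118% rose. Of the 13 proteins encoded by the mitochondrial genome, which are translated by mitochondrial ribosomes, 3 fell, with a list median of -0.64. MT-ATP8 had 22.7, 14.6 and 16.4 against 45.3, 45.2 and 22.3 CPM (log2 -1.02 ± 0.16, edgeR adjusted p = 0.00591), and MT-ND3 and MT-ATP6 had log2 fold changes of -0.81 and -0.75. Vehicle replicate 1 was the highest library in all 13, as in MT-ATP6 with 72.6, 69.6 and 72.6 against 206, 92.7 and 87.7. Without replicate 1 the list median was -0.21, 12 of 13 were lower, and MT-CO2 had a log2 fold change of 0.15. In that fit MT-ATP8 (-1.03) and MT-ATP6 (-0.34) were still called, MT-ND5 (-0.28, edgeR adjusted p = 0.0611) was called in addition, and MT-ND3 (-0.5, edgeR adjusted p = 0.127) was not. With no replicate block edgeR called none of the 13, the lowest adjusted p being 0.718 (MT-ATP8). In study 2 the log2 fold changes of MT-ATP8, MT-ND3 and MT-ATP6 were -0.2, -0.51 and -0.47.

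Of 52 core histone transcripts 5 rose (against 0.118% of all transcripts), all of them H2B, with a list median of 0.13. Of 78 nuclear-encoded respiratory chain subunits, ATP5MK rose and NDUFB8 fell, beside 0.118% and 0.345% of all transcripts (NDUFB8 161, 197 and 179 against 249, 230 and 235 CPM, log2 -0.41 ± 0.09, edgeR adjusted p = 0.0769), with a median of 0.03. MRPL45 fell among 76 mitochondrial ribosomal proteins (-0.57, list median 0.01) and EMC7 among 10 subunits of the ER membrane complex (-0.63, list median 0.03). Of 27 genes of cholesterol synthesis and uptake, LRP8, a receptor of the LDL receptor family, fell (6.84, 10.9 and 9.72 against 12.1, 18.9 and 13.7 CPM, log2 -0.7 ± 0.15, edgeR adjusted p = 0.0725), with a list median of 0.04.

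No member passed over the whole CDS in 14 other lists, whose medians lay between -0.1 and 0.03. These were cytosolic ribosomal proteins of the large (53) and small subunit (32), hepatocyte plasma proteins (32), apolipoproteins and lipoprotein assembly (11), integrated stress response targets (15), ER chaperones (19), ER targeting and translocation (32), ribosome rescue factors (18), initiation factors (43), elongation and termination factors (11), aminoacyl-tRNA synthetases (19), proteasome subunits (35), immediate early genes (18) and heat shock proteins (10). Their widest log2 values were those of the stress response genes DDIT3 (0.66 ± 0.36) and NUPR1 (-0.64 ± 0.34), PSMB10 (-0.59 ± 0.2) and APOA4 (0.56 ± 0.29). Ribosomal proteins ran from RPL41 (-0.32 ± 0.08) to RPS20 (0.25 ± 0.12), plasma proteins from A1BG (-0.47 ± 0.17) to RBP4 (0.23 ± 0.07), and immediate early genes from IER5 (-0.32 ± 0.18) to MYC (0.37 ± 0.09).

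Of these 14 lists 7 had no raised codon among those tested, which were the stress response, rescue, initiation, elongation, synthetase, proteasome and immediate early lists. In the other 7 between 0.0688% and 0.176% of codons tested were raised, near the 0.126% of all codons. Single genes held most of them in the ribosomal lists, RPL27 with 9 of 11 for the large subunit and RPS6 with 4 of 5 for the small subunit. Some lists with no raised codon had few codons tested. These were the immediate early (225), stress response (370), rescue (714) and synthetase (925) lists. With so few codons, an absence there cannot be told apart from the share of all codons. In simulated data codon changes of log2 1 were not found, so changes of that size could go unseen in any list. SEC63, of the ER translocation machinery, had 5.12% ± 1.61 against 0.54% ± 0.223 of its reads at codon 214. RPS6 of the small ribosomal subunit had 9.46% ± 2.38 against 3.72% ± 2.32 at codon 163 and 30.3% ± 10.3 against 15.9% ± 4.06 over codons 151 to 164. APOB, the structural protein of low-density lipoprotein, had 0.0372% ± 0.0111 against 0.005% ± 0.00305 at codon 35, though in study 2 its groups overlapped, with 0.0232% and 0.0265% against 0.0376% and 0.0106%. C3, the central complement component, had 0.312% ± 0.0868 against 0.0495% ± 0.0172 at codon 1386. HSPD1, the mitochondrial chaperonin, had 0.596% ± 0.109 against 0.16% ± 0.0713 at codon 151. At each of these codons the groups did not overlap in study 1.

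Of 21 genes that the study listed from these libraries, all 21 fell 3′ of the Dmax codon and 15 fell over the whole CDS. Of 7 further genes that it followed, FAM13B, SORCS2 and LRP8 fell over the whole CDS, and TM2D3 (-0.52 ± 0.16), MAPRE1 (-0.16 ± 0.08), VPS25 (0.01 ± 0.1) and COX10 (0.19 ± 0.16) were not called. Both lists were chosen on these samples and are not independent evidence of direction. BCAP31, EMC7, HSD17B11, MDK, PCBP1 and PCBP2 passed in all 5 measures (single codon, early share, center of density, reads 3′ of the Dmax codon and whole CDS), which draw on the same reads.

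Averaged over 8085 transcripts of at least 200 codons, ribosome density along the CDS was read in 13 windows relative to the CDS mean, and group means differed by -19.3% to 4.49%. Codons 51 to 100 stood at 1.02, 1.02 and 1.01 against 1.02, 0.965 and 0.995 and the codons after these up to 200 at 1.06, 1.04 and 1.07 against 1.03, 1 and 1.04, both higher in 3 of 3 pairs, with paired differences of 0.0235 ± 0.0261 and 0.0303 ± 0.00717 (SD over 3 pairs). Codons 10 to 12 before the stop codon stood at 1.06, 1.07 and 1.2 against 1.12, 1.17 and 1.29, lower in 3 of 3 pairs, with a paired difference of -0.086 ± 0.0229. The last sense codon stood at 8.48, 8.64 and 10.3 against 14.1, 9.29 and 10.6, lower in 3 of 3 pairs, with vehicle replicate 1 the highest library. The other 9 windows had pairs of both signs, as at codons 11 to 20 with 0.483, 0.532 and 0.439 against 0.531, 0.454 and 0.443. In the 4 windows of one sign the two-sided exact permutation p within pairs was 0.25, the smallest that 3 pairs allow, and over unpaired libraries no window reached 0.1, the smallest that 3 against 3 allow, so neither test could pass 0.05. Over the sense codons at the P and A sites, limma called 0 of 122 occupancies, with 2 at an unadjusted p under 0.05.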

How the data were processed

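The deposited files hold raw read counts per P-site codon, which the authors made with Bowtie 1.1.2 (kallisto 0.42.5, DESeq and GRCh38 are also named in the submitters' processing notes), a P-site offset of 14 nt, and reads with up to 5 best sites counted at each. Members and gene lists were chosen with earlier results of these data known.

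From these counts, codons were summed per transcript and tested with edgeR 4.0.16 in R 4.3.3 (quasi-likelihood test, TMM, low counts filtered, replicate number as block, Benjamini-Hochberg FDR 0.1). The study named DESeq, and whether it blocked by replicate is not given in the sources used here. Within a replicate number, the 2 libraries deviated together from their group means (r = 0.547, 0.418 and 0.593 over 8279 transcripts), so the numbers were taken as pairs. Those of different numbers gave r of -0.415 to -0.00285, which deviations from a mean of 3 pull below 0. Single codons and the early share were tested against the rest of the CDS. Dmax and center of density were scored as Z within bins of transcripts of like read depth (bin size 300). Codon occupancy used limma 3.58.1. CPM are reads per 1000000, scaled by TMM except for H2B outside codons 58 to 60. CDS reads per library ran from 6414227 to 22224137. Depth limits what can be seen at codons with few reads, and intervals of reads cover counting error only.

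Named were the 10 genes per direction of largest change with at least 50 mean reads, the 15 highest and 5 lowest codons, all genes called by Dmax or center of density, and called list members. Other genes described, the stretches and the genes drawn were chosen after their values were seen. Some called genes are not reported here, though counts may include them. Steps were tested on simulated data, where planted codon changes of log2 3 were found in 94% and those of log2 1 in 0%. Planted changes of log2 1 were found in 99% over the whole CDS, 96.5% 3′ of the Dmax codon and 52% for the early share. There 11.2%, 9.39% and 5.45% of calls were false, in the same order. Python 3.11.15, numpy 2.4.6, pandas 2.3.3, scipy 1.17.1 and DESeq2 1.42.0 were used for other steps and alternatives.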

Additional observations from a re-analysis of the deposited data

Results flagged for a closer look

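AMD1 differed between times: its log2 fold change at 10 min minus that at 60 min was -0.998 ± 0.159 (edgeR adjusted p = 0.0759). At 10 min it had 40.8, 32.2 and 40.8 CPM in 1.5 µM and 51.6, 51.3 and 57.8 in vehicle, and at 60 min 60.0, 39.9 and 56.7 against 40.4, 33.4 and 35.9. In study 2 at 60 min it had 40.7 and 35.9 against 37.6 and 32.5 CPM and was not called (log2 0.13 ± 0.1, edgeR adjusted p = 0.845).

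The change in 3 genes differed between studies, given as study 2 minus study 1. FEZF2 differed by 2.2 ± 0.3 (edgeR adjusted p = 0.0183), and its levels in study 2 were 199 and 172 against 153 and 182 CPM, far above those of study 1. At 10 min in study 1 its change was log2 -2.89 ± 0.35, edgeR adjusted p = 6.86e-08. HIST1H2BN differed by -0.74 ± 0.11 (edgeR adjusted p = 0.0281), with 420 and 481 against 375 and 360.1 in study 2. H2BC26 differed by -0.56 ± 0.09 (edgeR adjusted p = 0.0535), with 818 and 942 against 752 and 806. The H2B genes share reads, so their differences are not independent. Each of these 4 differences lost its call with no replicate block.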

How the results depend on the processing

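The replicate block decides most counts. With no replicate block the calls were 8 over the whole CDS, 22 3′ of the Dmax codon, 29 for the early share and 8 single codons, 0 for the difference between times, 0 between studies, and 13 in study 2 ribo-seq. An alternative chosen after seeing the data, no block with 1 library left out, gave 5, 8 and 1 whole-CDS calls without 1.5 µM replicates 1, 2 and 3 and 8, 0 and 4 without vehicle replicates 1, 2 and 3.

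With 1 replicate number left out, calls ranged from 31 (without replicate 3) to 324 (without replicate 1) over the whole CDS, from 58 to 133 (without replicate 2) 3′ of the Dmax codon, from 56 to 94 for the early share, from 240 to 789 (without replicate 1) for single codons, from 0 (without replicate 1) to 32 (without replicate 3) between times, from 0 (without replicate 3 or 4) to 22 (without replicate 1) between studies, from 10 (without vehicle replicate 4) to 129 in study 2 ribo-seq and from 0 to 2 in mRNA-seq. A Dmax Z-score of 3 gave 23, an early region of codons 1 to 100 gave 34, DESeq2 gave 17 in study 2 ribo-seq, and in mRNA-seq DESeq2 size factors and no filter each gave 3. Center of density with the first 50, 100 or 150 codons left out gave 10, 5 and 4. The density at 10 to 12 codons before the stop differed by -0.0325 as a median and -0.135 from pooled reads.

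Directions reversed in FEZF2 (whole CDS, 0.39 with no block and without vehicle replicate 1), HIST1H2BN (early share, 1.23 with codons 1 to 100) and several centers of density. Those Z-scores were, without the first 50 codons, 0.559 for MDK, 0.442 for HSD17B11, 0.266 for PCBP1, 0.413 for CD99, 0.268 for EMC7 and 0.0472 for SSR1. Without the first 100 they were 0.199 for PCBP1, 1.03 for CD99, 0.142 for EMC7 and 0.163 for PODXL2, and without the first 150, 0.00814 for TM2D3, 0.0508 for BCAP31, 0.107 for CD99 and 0.301 for EMC7. These alternatives remove the codons where the reads had accumulated. Of the other values for named genes, 204 of the whole CDS, 340 of Dmax, 105 of the early share, 79 of single codons and 84 of the center of density kept their direction and call, and 131, 70, 33, 29 and 41 kept their direction only. Causes were not tested.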
